A study of Mus musculus with 10 samples.

Results

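Ligands and receptors of the fibroblast growth factor (FGF) and platelet-derived growth factor (PDGF) families were followed across the cells of mouse inguinal white adipose tissue (iWAT). The genes were chosen by symbol as growth factors of the adipose progenitor niche and their receptors: the ligands Fgf10, Fgf7, Fgf1, Fgf2, Pdgfa and Pdgfb and the receptors Fgfr1, Pdgfra and Pdgfrb. All 9 were found among the 14623 genes of the count table. The study asked how loss of Bbs8, a component of the BBSome complex that carries cargo to and from the primary cilium, changes adipocyte precursors before obesity develops. For this, the stromal vascular fraction (SVF), the cells of fat that remain once the adipocytes are removed, was taken from the iWAT of a Bbs8 knockout (KO, Bbs8-/-) and a Bbs8+/+ wildtype (WT) mouse, both lean and 7 weeks old. RNA was read with Seq-Well S3, which pairs single cells with barcoded beads in the wells of an array and counts molecules by unique molecular identifiers (UMIs). With 1 mouse per genotype and a knockout that is present in all tissues, a difference between the genotypes cannot be told apart from a difference between individual mice.

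FGFs bind receptor tyrosine kinases together with heparan sulphate, and PDGF dimers bind the receptors encoded by Pdgfra and Pdgfrb. Both families signal through the MAP kinase and PI3 kinase pathways, and FGF signaling induces feedback inhibitors such as the Sprouty proteins. In adipose tissue, Pdgfra is widely used to mark adipocyte precursors, Pdgfrb marks mural cells and some precursors, and PDGF-B from endothelial cells recruits pericytes to vessels.

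The table held 10914 cells, 8985 from the Bbs8 KO mouse with a median of 251 UMIs and 1929 from the Bbs8 WT mouse with a median of 278, each with 101 to 994 detected genes. Cell names fell into 5 barcode sets per genotype (KO5_p2, KO5_p3, KO6_p1, KO6_p2 and KO6_p3, WT3_p1, WT3_p2, WT3_p3, WT4_p2 and WT4_p3). As the design text speaks of 1 mouse per genotype, the sets are given as a range and not as replicates. What the numbers in KO5 and KO6 or WT3 and WT4 stand for is not given in the sources used here, and should they mark separate animals, the spread over the sets would include that between animals. KO sets had 1635 to 2005 cells and WT sets 196 to 768, and 36 barcodes occurred in more than 1 set (103 cells). Ttc8, the gene symbol of Bbs8, had 0 UMIs in all KO sets together, which allows up to 0.954 CPM (UMIs per 1000000 UMIs), and 5 UMIs in WT, all in WT4_p2. Cells were clustered without the FGF and PDGF ligands and receptors, and clusters were named from marker lists that held none of the 9 genes. The stromal cells split into P1-like cells (stem cell-like, named from Dpp4, Pi16 and Cd55), P2-like cells (committed preadipocytes, from Col15a1, Icam1, Fabp4 and others) and P3-like cells (regulatory, from F3, Gdf10 and Inmt). They numbered 434, 710 and 218 in KO and 177, 277 and 114 in WT, and are called P1, P2 and P3 below. The cluster called pericyte-like was named from a list that holds pericyte and smooth muscle genes. Its top genes included Myh11, Myl9, Acta2, Tpm2, Mylk and Tagln of smooth muscle beside Rgs5 and Notch3. Pericytes and vascular smooth muscle cells are therefore not told apart in this class. Stromal cells made up 15.2% of the KO and 29.4% of the WT cells, and 34.5% of KO and 25.2% of WT cells were in clusters that got no name. The largest unnamed cluster, with 1780 cells, leaned to the stromal markers, so the stromal shares depend on the naming. At a clustering resolution of 0.4, 2859 KO and 864 WT cells were named stromal. Doublets were not removed, and the 4 adipocyte markers summed to 10.53 CPM in KO and 0 in WT stromal cells.

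Levels are given as CPM of all UMIs of a class, with both mice together unless a genotype is named. KO cells carry most of the UMIs, so the ratio of each genotype is given where those of KO and WT differed by more than 1.5 times. All intervals are exact 95% intervals (Poisson for CPM, Clopper-Pearson for shares of cells, conditional for ratios) and cover counting error only. No test between genotypes was possible with 1 mouse each, and none was run between classes, so no p-values are given. The counts come from transcript ends, so levels are compared between classes for each gene and not between genes. T- and B-cell-like cells, which had a median of 260 UMIs against 349 in stromal cells, served as the background for free RNA.

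Promoter windows of 250 bases were taken from RefSeq (GRCm38.p6) for Fgf10 and Fgf2, ligands with their highest pooled level in different stromal subtypes, and for the receptor that was high in all of them, Pdgfra. Entries were found for 5 of the 9 genes, and Pdgfrb and Fgfr1, which also differed between the subtypes, were not among them. All 3 windows are on the plus strand and end at the base before an annotated start, and capitals mark a GC box.
Fgf10 chr13:118714449-118714698: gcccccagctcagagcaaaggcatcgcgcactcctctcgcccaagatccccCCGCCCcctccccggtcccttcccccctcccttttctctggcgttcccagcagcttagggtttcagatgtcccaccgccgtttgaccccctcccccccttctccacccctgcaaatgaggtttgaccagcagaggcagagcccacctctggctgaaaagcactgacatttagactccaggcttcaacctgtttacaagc
Fgf2 chr3:37348403-37348652: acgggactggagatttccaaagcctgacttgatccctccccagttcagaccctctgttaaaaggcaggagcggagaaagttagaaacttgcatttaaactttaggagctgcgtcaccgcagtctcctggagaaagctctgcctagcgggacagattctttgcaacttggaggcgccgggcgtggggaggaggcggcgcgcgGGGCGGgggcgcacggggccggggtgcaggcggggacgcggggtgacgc
Pdgfra chr5:75152001-75152250: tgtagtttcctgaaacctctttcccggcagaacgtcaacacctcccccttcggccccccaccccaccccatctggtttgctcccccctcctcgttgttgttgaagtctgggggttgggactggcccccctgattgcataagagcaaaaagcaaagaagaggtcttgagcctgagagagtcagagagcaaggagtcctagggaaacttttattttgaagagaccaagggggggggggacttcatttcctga
The GC box was searched as GGGCGG, the CCAAT box as CCAAT and the TATA box as TATAAA, each on both strands. The Fgf10 and Fgf2 windows each held 1 GC box, which was present in 32.7% of all 32851 promoter windows. None of the 3 motifs was found in the Pdgfra window, and 33.8% of all windows held a CCAAT box and 12.4% a TATA box. The G and C content was 61.2% for Fgf10, 62.4% for Fgf2 and 54.4% for Pdgfra. The Fgf10 and Fgf2 windows lie within the longer gene spans that GENCODE gives.

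Fgf10 (ENSMUSG00000021732, chr13:118669791-118792115, plus strand) encodes a secreted ligand known to act mainly on FGFR2 and to promote differentiation of preadipocytes. Among the stromal subtypes it was highest in P2. P2 cells held 179 of the 225 Fgf10 UMIs in named classes (79.6%), a level of 381 CPM (327 to 441). P3 cells had 112 CPM (65.5 to 180.0, 17 UMIs) and P1 cells 13.01 CPM (3.55 to 33.3, 4 UMIs). P1 was thus close to the 7.80 CPM of T and B cells, which came from 7 UMIs. Fgf10 was 29.3-fold higher in P2 than in P1 (11.2 to 109, higher in 10 of 10 sets) and 3.39-fold higher than in P3 (2.06 to 5.95, 8 of 10 sets). The P2 to P3 ratio was 4.38 in KO (2.24 to 9.79) and 2.19 in WT (1.02 to 5.39). A UMI of Fgf10 was found in 11.96% of P2 cells (9.997 to 14.1), 0.655% of P1 cells and 0.268% of T and B cells. With every cell thinned to 200 UMIs, the shares were 7.33% in P2 and 0.208% in T and B cells. Thinned WT cells had 298 CPM in P2 (15 UMIs) and 291 CPM in P3 (6 UMIs), so P2 was not clearly above P3 there. Thinned KO cells had 438 CPM in P2 (52 UMIs) and 108 CPM in P3 (4 UMIs). When cells were called from marker UMIs without clusters, the P2 to P3 difference fell from 1.72 to 0.89 on the log2 scale, while the P2 to P1 difference stayed within 3.60 to 4.96 in all alternatives.

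In P2 cells of the Bbs8 KO mouse, the 5 sets had 254, 335, 508, 354 and 484 CPM of Fgf10, in the order given above. The Bbs8 WT sets had 127, 190 (190.3), 967, 359 and 337 CPM. The WT sets spanned the whole range of the KO sets, with both the lowest value (WT3_p1) and the highest (WT3_p3). The genotype totals were 397 CPM (136 UMIs) in KO and 337 CPM (43 UMIs) in WT, a log2 ratio of 0.23 (-0.27 to 0.77). For all genotype ratios, 5 CPM were added to both levels, which understates changes of low genes, and the interval is that of the plain ratio. The Fgf10 ratio over P2 cells turned negative at a clustering resolution of 0.4 (-0.41), in cells with at least 200 genes (-0.28), with cells called from marker UMIs (-0.14) and with the sets weighted equally (-0.03).

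**Figure D1:**
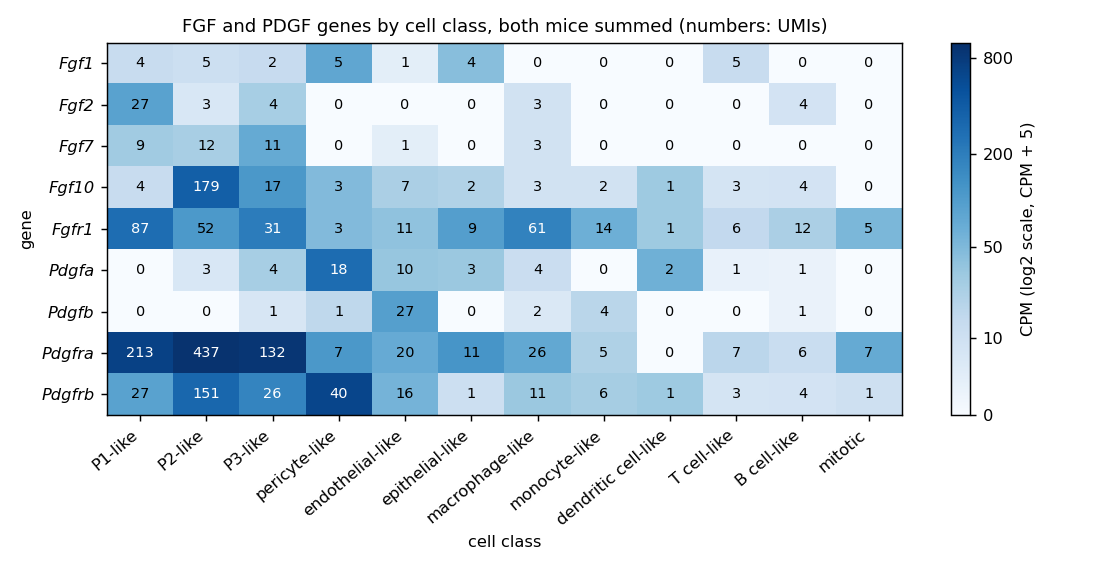
Heat map of the 9 genes (vertical axis) in 12 cell classes (horizontal axis), both mice together. Colour gives the level in CPM on a log2 scale after adding 5 CPM, and the number in each cell is its UMI count; Fgf10 is darkest in P2-like cells (381 CPM), Fgf2 and Fgfr1 in P1-like cells, Pdgfra in the 3 stromal classes, Pdgfrb and Pdgfa in pericyte-like and Pdgfb in endothelial-like cells.

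Fgf2 (ENSMUSG00000037225, chr3:37348346-37410108, plus strand) encodes basic FGF, a ligand that lacks a classical signal peptide and maintains proliferation of many mesenchymal cells. Its UMIs were few but lay mostly in P1, where Fgf10 was lowest of the 3 subtypes. P1 cells had 27 of the 41 UMIs in named classes, or 87.8 CPM (57.9 to 128), and 3.93% of P1 cells had a UMI, against 0.115% of T and B cells. P3 cells had 26.4 CPM (4 UMIs) and P2 cells 6.38 CPM (3 UMIs). The level in P1 was 13.8-fold that in P2 (4.23 to 70.9, higher in 8 of 10 sets) and 3.32-fold that in P3 (1.16 to 13.1). The order of P1 and P3 turned in WT, where P1 had 59.3 CPM (5 UMIs) and P3 77.0 CPM (4 UMIs), a ratio of 0.77 (0.166 to 3.88, P1 higher in 2 of 5 sets), and the pooled ratio came from KO, with 22 UMIs in P1 and 0 in P3. P2 had 3 UMIs in KO and 0 in WT. The KO sets had 105, 73.8, 123, 73.5 and 111 CPM in P1 cells, and the WT sets 197, 160 (159.6), 0, 26.4 and 0. All KO sets were above 0 and within the WT range, and the KO to WT ratio in P1 was 0.69 on the log2 scale (-0.70 to 2.49). Leaving out the 6% of cells with the most UMIs gave -0.06, and keeping cells with at least 200 genes gave 2.63. Exons of Fgf2 overlap those of Nudt6 on the opposite strand, which had 19 UMIs in all cells.

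Fgf7 (ENSMUSG00000027208, chr2:126034658-126091185, plus strand), also called keratinocyte growth factor, is a stromal ligand that acts on epithelial FGFR2. It was seen in all 3 subtypes at low counts, with 72.7 CPM in P3 (36.3 to 130, 11 UMIs), 29.3 CPM in P1 (9 UMIs) and 25.5 CPM in P2 (12 UMIs). P3 was 2.85-fold higher than P2 (1.14 to 7.05), but higher in only 4 of 10 sets, with 3 sets at 0 in both, and the ratio was 3.45 in KO (1.13 to 10.54) and 1.84 in WT (0.2699 to 10.9). The P3 to P1 ratio of 2.48 had an interval that included 1 (0.936 to 6.78), as had those of 2.996 in KO (0.912 to 10.48) and 1.62 in WT (0.217 to 12.1). None of 2614 T and B cells had a UMI of Fgf7, which allows up to 3.34 CPM. The KO to WT ratio over stromal cells was -0.17 on the log2 scale (-1.33 to 1.05).

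Fgf1 (ENSMUSG00000036585, chr18:38838673-38929472, minus strand) encodes acidic FGF, which is known for a role in the remodeling of fat. It was the least detected member, with 14 UMIs in KO and 19 in WT cells. Pericyte-like cells had 79.7 CPM (25.9 to 186, 5 UMIs in 3 cells), epithelial-like cells 43.2 CPM (4 UMIs) and stromal cells 11.8 CPM (11 UMIs). Of the 5 pericyte UMIs, 4 came from WT. The pericyte level was 6.73-fold that of stromal cells (1.83 to 21.0) but higher in only 3 of 10 sets, with a ratio of 2.21 in KO (0.0481 to 18.2) and 16.7 in WT (3.32 to 77.8), and neighbours in the order of the 12 classes had ratios whose intervals included 1. T and B cells had 5.57 CPM, from 5 UMIs in 3 cells, of which 4 UMIs were from WT (62.4 CPM).

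Fgfr1 (ENSMUSG00000031565, chr8:25513654-25575718, plus strand) encodes the FGF receptor typical of mesenchymal cells. It had UMIs in all 12 classes. P1 cells had 283 CPM (227 to 349, 87 UMIs), P3 cells 205 CPM (139 to 291), macrophage-like cells 179.9 CPM (138 to 231, 61 UMIs) and P2 cells 111 CPM (82.6 to 145). T and B cells had 20.1 CPM (18 UMIs), with 15.6 CPM in KO (13 UMIs) and 78.0 CPM in WT (5 UMIs). P1 was 2.56-fold higher than P2 (1.79 to 3.68, 9 of 10 sets), and 2.12-fold in KO (1.40 to 3.23) and 4.39-fold in WT (2.08 to 10.1), whereas the ratio of P1 to P3 of 1.38 had an interval that included 1 (0.907 to 2.15). Fgfr1 and Fgf10 had opposite orders in P1 and P2. The shares of cells with a UMI were 11.5% in P1, 4.96% in P2, 6.30% in macrophages and 0.689% in T and B cells, and 5.15%, 2.25%, 2.33% and 0.468% after thinning to 200 UMIs. After thinning, P3 was no longer above P2, with 104 CPM (38.2 to 227, 6 UMIs, 2.08% of cells) against 118 CPM (72.2 to 183).

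The macrophage level of Fgfr1 was 8.96-fold that of T and B cells (5.23 to 16.1, 9 of 10 sets) and 2.85-fold that of monocyte-like cells (1.57 to 5.51, 8 of 10 sets). Against T and B cells it was 11.3-fold in KO (6.03 to 22.6), while the 2.57-fold ratio in WT had an interval that included 1 (0.823 to 9.43). Against monocytes it was 3.73-fold in KO (1.76 to 9.12) and 1.73-fold in WT (0.586 to 5.69). It was 286, 165, 172, 102 and 171 CPM in the KO sets and 391 (390.6), 209, 0, 134 and 243.5 CPM in the WT sets. The WT sets had both the highest and the lowest value, and the genotype totals were 176 CPM in KO and 200.4 CPM in WT. In the same cells, Pdgfra had 76.7 CPM and Fgf10 8.85 CPM, and the 8 stromal markers summed to 7531 CPM in KO and 5229 CPM in WT, against 75181 and 86050 CPM (86049.6) in stromal cells. Stromal cells had 183 CPM of Fgfr1 and 842 CPM of Pdgfra. The part of stromal RNA in the macrophage level of Fgfr1 was not tested. In P1 cells, Fgfr1 had 209, 148, 267, 294 and 377 CPM in the KO sets and 296, 239, 229, 396 and 360.3 CPM in the WT sets, which overlapped.

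Pdgfra (ENSMUSG00000029231, chr5:75152292-75198215, plus strand), the receptor for PDGF-A and other PDGF dimers, had the most UMIs of the 9 genes, 1151 in all cells. Of these, 871 were in named classes and 273 in the unnamed clusters, the largest of which leaned to the stromal markers. Stromal cells held 89.8% of the Pdgfra UMIs in named classes, at 842 CPM (784 to 903), and 25.5% of them had a UMI (492 of 1930 cells). The share was 0.421% in T and B cells, and 13.9% against 0.260% after thinning to 200 UMIs, which kept 1149 of 1362 KO and 509 of 568 WT stromal cells. The stromal level was 58.1-fold that of T and B cells (33.8 to 110), 7.54-fold that of pericyte-like cells (3.64 to 18.8) and 11.96-fold that of endothelial-like cells (7.69 to 19.7), and higher in 10 of 10 sets each time. The ratio to T and B cells was 65.7 in KO (35.4 to 138) and 20.9 in WT (7.07 to 102), that to pericyte-like cells 6.58 (3.004 to 18.0) and 12.3 (2.19 to 489), and that to endothelial-like cells 17.9 (9.66 to 37.5) and 5.57 (2.98 to 11.8).

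Among the subtypes, the levels of Pdgfra lay within 1.34-fold. P2 had 929.9 CPM (845 to 1021), P3 873 CPM (730.3 to 1035) and P1 693 CPM (603 to 792). P2 was 1.34-fold higher than P1 (1.14 to 1.59, 8 of 10 sets), and P2 and P3 could not be told apart at this depth (1.07-fold, 0.875 to 1.30). In P2 cells, 53 of 987 had UMIs of both Pdgfra and Pdgfrb, where the product of the shares gives 33.3 cells, and cells with more UMIs are more likely to hold both.

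Over all stromal cells, the KO sets had 753, 788, 816, 838 and 751 CPM of Pdgfra, and the WT sets 1016, 902.5, 1752, 736 and 1235 CPM. The KO sets lay close together, and 4 of the 5 WT sets were above all of them, but WT4_p2, the largest WT set, was below all of them. The totals were 788 CPM in KO and 978 CPM in WT, a log2 ratio of -0.31 (-0.53 to -0.09). In P2 cells, the KO sets had 913 (912.7), 698.8, 892, 936 and 868.6 CPM and the WT sets 1529, 904, 1692, 907 and 1281 CPM, and the ratio was -0.38 (-0.68 to -0.09). The ratio was -0.36 in P3 (-0.88 to 0.17) and -0.12 in P1 (-0.56 to 0.33). The P3 ratio turned to 0.83 with at least 200 genes per cell and the P1 ratio to 0.06 without WT4_p3. Each had the other sign in 3 of 26 alternatives. Over all stromal cells, Pdgfra was the only one of the 6 members with at least 20 UMIs whose counting interval did not include 0. Of 46 other FGF and PDGF pathway genes with as many UMIs, the interval lay above 0 for 4 and below 0 for 4. The share of all genes with such an interval was not computed, so Pdgfra is not set apart by it. The Pdgfra ratio over all stromal cells kept its sign under all alternatives, from -0.58 at a resolution of 0.4 to -0.19 without WT4_p3, and was -0.55 without WT4_p2.

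Other values moved with the genotype in these same cells. The 8 stromal markers summed to 75181 CPM in KO and 86050 CPM (86049.6) in WT stromal cells. The 17 T and B cell markers summed to 1433 CPM in KO (1262 to 1702 over the sets, with 0 of the 17 genes at 0) and 371 CPM in WT (0 to 479, with 2 genes at 0). In P2 cells, the 10 P2 markers summed to 12542 CPM in KO (11027 to 15604 over the sets) and 18983 CPM in WT (18286 to 20546), with 1 gene at 0 in each, so the sets did not overlap. These markers are not specific to P2 among all classes. They summed to 22714 CPM in KO and 28738 CPM in WT endothelial-like cells, and to 14109 and 13485 CPM in pericyte-like cells. The 9 P3 markers summed to 1355 CPM in KO and 2626 CPM in WT P2 cells, and the 10 macrophage markers to 704 CPM in KO (375 to 954, no gene at 0) and 235 CPM in WT (0 to 381, with 3 genes at 0). The 4 erythroid markers went the other way, with 38.0 CPM in KO (15.0 to 58.2, no gene at 0) and 376 CPM in WT P2 cells (0 to 1416, with 1 gene at 0), and 46.6 and 227 CPM over all stromal cells. The part of these differences in the lower Pdgfra level was not tested. T and B cells were 26.5% of the KO and 11.9% of the WT cells, and they themselves had 12.01 CPM of Pdgfra in KO (10 UMIs) and 46.8 CPM in WT (3 UMIs).

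**Figure D2:**
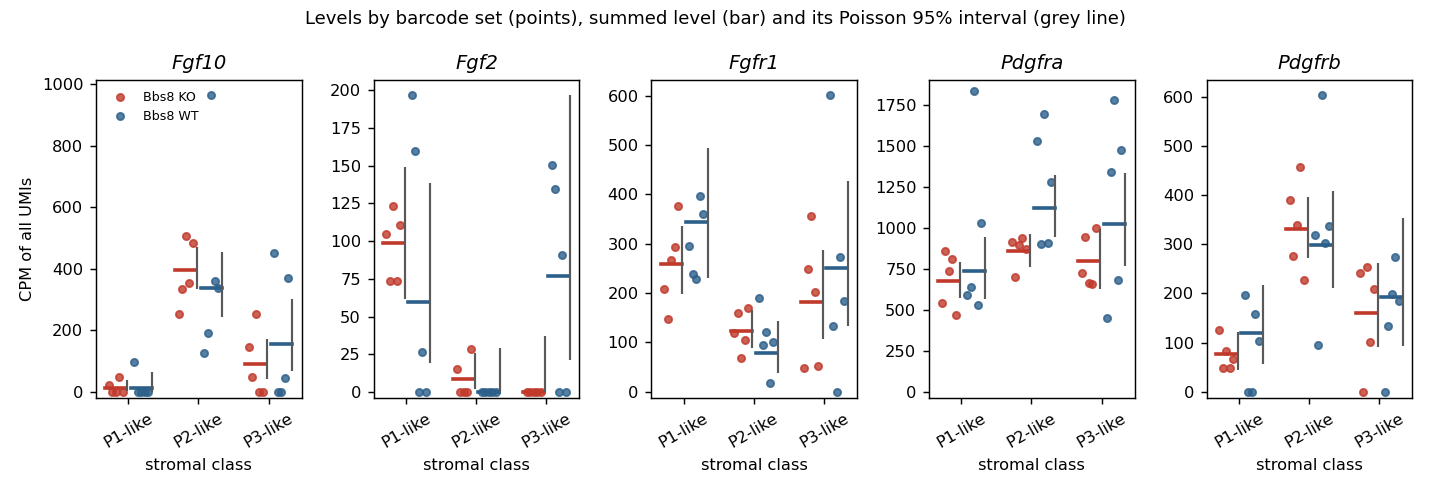
Level of 5 members in P1-, P2- and P3-like cells in CPM (vertical axes, 1 scale per gene) for Bbs8 KO (red) and Bbs8 WT (blue). Points are the barcode sets, horizontal bars the summed level and grey lines its exact Poisson 95% interval; the points of the genotypes overlap in P1- and P2-like cells, and Fgf10 in P2-like cells reaches 967 CPM in 1 WT set.

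Pdgfrb (ENSMUSG00000024620, chr18:61045150-61085061, plus strand), the receptor for PDGF-B, was highest in the pericyte-like cells and also differed between the stromal subtypes. Pericyte-like cells had 638 CPM (456 to 868, 40 UMIs) and 29 of 153 cells with a UMI, or 19.0%. P2 cells had 321 CPM (272 to 377, 151 UMIs), P3 cells 172 CPM and P1 cells 87.8 CPM. The pericyte level was 1.98-fold that of P2 (1.36 to 2.83, 6 of 10 sets), P2 was 1.87-fold higher than P3 (1.23 to 2.95, 9 of 10 sets) and 3.66-fold higher than P1 (2.42 to 5.73, 10 of 10 sets). The P2 to P1 ratio was 4.33 in KO (2.59 to 7.698) and 2.51 in WT (1.23 to 5.65), and the P2 to P3 ratio of 1.55 in WT had an interval that included 1 (0.756 to 3.48). P3 was 1.96-fold higher than P1 (1.10 to 3.49, 8 of 10 sets), though the interval included 1 in each genotype alone. Shares of cells with a UMI were 12.4% in P2 and 0.230% in T and B cells, and 5.44% and 0.104% after thinning. T and B cells had 4.80 CPM in KO (4 UMIs) and 46.8 CPM in WT (3 UMIs).

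The pericyte markers summed to 213 CPM in KO and 47.0 CPM in WT P2 cells, against 13151 and 9677 CPM in pericyte-like cells, and the Pdgfrb level of P2 cells was 330.1 CPM in KO and 298 CPM in WT. In P2 cells, the KO sets had 389, 277, 339, 458 and 228 CPM and the WT sets 319, 95.2, 604, 302 and 337 CPM, which overlapped. Over all stromal cells, Pdgfrb had 219.6 CPM in KO and 219.9 CPM in WT, a log2 ratio of -0.00 (-0.45 to 0.46). In pericyte-like cells, Pdgfrb had 1033, 706, 239, 718.5 and 411 CPM in the KO sets and 463, 0, 0, 1136 and 0 CPM in the WT sets. The WT sets at 0 hold few cells, as the WT mouse gave 37 pericyte-like cells in all. In endothelial-like cells, Pdgfra was 44.0 CPM in KO and 176 CPM in WT and Pdgfrb 35.2 and 140.4 CPM, while the pericyte markers summed to 1066 and 2686 CPM and the stromal markers to 6579 and 7917 CPM in these cells. The part of mural or stromal RNA in these levels was not tested.

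Pdgfb (ENSMUSG00000000489, chr15:79995874-80014977, minus strand), the ligand of the mural receptor, lay mostly in endothelial-like cells. They had 27 of its 36 UMIs in named classes, 95.1 CPM (62.6 to 138), in 26 of 708 cells (3.67%, and 1.69% after thinning). Monocyte-like cells had 18.1 CPM (4 UMIs), and stromal cells and T and B cells had 1 UMI each. The endothelial level was 5.26-fold that of monocytes (1.83 to 20.7), with 6.23-fold in KO (1.90 to 32.2) and 1.82-fold in WT (0.0946 to 107), and 88.3-fold that of stromal cells, an interval of 14.5 to 3614 because of the single stromal UMI. The KO sets had 30.3, 79.8, 109, 136 and 155 CPM and the WT sets 0, 0, 0, 94.2 and 0, from 25 UMIs in KO and 2 in WT. In WT, stromal and T and B cells had no UMI and monocytes 1, so the order of the classes rests on KO. The sets overlapped through WT4_p2, and the log2 ratio of 1.52 had an interval of -0.36 to 4.77.

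Pdgfa (ENSMUSG00000025856, chr5:138976014-138997370, minus strand), a ligand of the receptor encoded by Pdgfra, was highest in pericyte-like cells, where Pdgfra had 112 CPM. Pericyte-like cells had 287 CPM (170.1 to 454, 18 UMIs in 12 of 153 cells), endothelial-like cells 35.2 CPM (16.9 to 64.7, 10 UMIs) and stromal cells 7.54 CPM (3.03 to 15.5, 7 UMIs). The pericyte level was 8.15-fold that of endothelial cells (3.57 to 19.8, higher in 4 of 10 sets with 4 at 0 in both) and 38.1-fold that of stromal cells (15.2 to 108). The ratio to endothelial cells was 19.6 in KO (5.396 to 107) and 3.23 in WT, with an interval that included 1 (0.808 to 11.8), and that to stromal cells was 24.6 in KO (9.14 to 72.9), while WT stromal cells had no UMI. By set, pericyte-like cells had 0, 706, 0, 261 and 205 CPM in KO and 0, 0, 0, 142 and 2332 CPM in WT, so that 5 of 10 sets held all UMIs. In endothelial-like cells, Pdgfa had 3 UMIs in KO (13.2 CPM) and 7 in WT (123 CPM), in the cells whose pericyte markers also differed as given above.

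**Figure D3:**
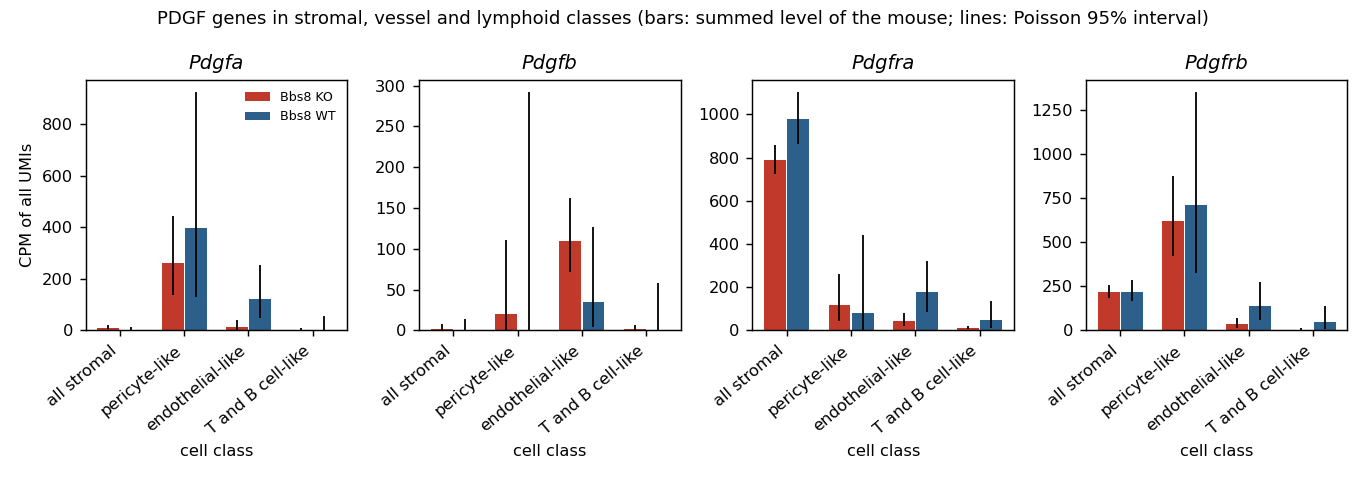
Level of the PDGF ligands and receptors in CPM (vertical axes, 1 scale per gene) in stromal, pericyte-like, endothelial-like and T and B cell-like cells. Bars are the summed level in Bbs8 KO (red) and Bbs8 WT (blue) and lines the exact Poisson 95% interval; Pdgfb is highest in endothelial-like cells (110.1 CPM in KO, 35.1 in WT), Pdgfa and Pdgfrb in pericyte-like cells and Pdgfra in stromal cells (788 and 978 CPM).

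Between the genotypes, the ratios of the members in stromal cells were set beside those of all genes. Of the 6 members with at least 20 UMIs in stromal cells of both mice together (Fgf10, Fgf7, Fgf2, Fgfr1, Pdgfra and Pdgfrb), 0 were at least 1.5-fold higher in Bbs8 KO, where 24.5% of the 6441 genes with as many UMIs were, and 0 were at least 1.5-fold lower, where 11.1% of genes were. The members' sets also overlapped in every case, as 0 had all KO sets above all WT sets (4.07% of genes) and 0 had them all below (1.24% of genes). With 6 members, counts of 0 are near these shares, and nothing is read from them about the group. The median log2 ratio of the 6 was -0.07, and that of all 6441 genes 0.12. Fgf1, Pdgfa and Pdgfb had 11, 7 and 1 UMIs in stromal cells and were not counted. Scaling by TMM or DESeq2 factors shifted all stromal ratios by -0.15 and -0.17.

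In P2 cells, 4 members had at least 20 UMIs (Fgf10, Fgfr1, Pdgfra and Pdgfrb). Fgfr1 was the 1 member at least 1.5-fold higher in KO, against 24.5% of 4063 genes, at 123 CPM in KO (42 UMIs) and 78.4 CPM in WT (10 UMIs) with a log2 ratio of 0.61 (-0.37 to 1.81). By set, Fgfr1 had 120 (119.7), 160.1, 67.8, 104 and 171 CPM in KO and 191, 95.2, 121, 18.9 and 101 CPM in WT, so the low WT value was mainly that of WT4_p2. No member was 1.5-fold lower (15.7% of genes were), and 0 had separate sets in either direction (3.15% of genes above and 1.35% below). Fgfr1 no longer reached 1.5-fold without WT4_p2, KO5_p3 or KO6_p3, or under TMM scaling (0.54), and was -0.09 with at least 200 genes per cell and -0.01 at a resolution of 0.4. With cells thinned to 200 UMIs it was higher, at 2.73. The WT level of 78.4 CPM was close to the 78.0 CPM of WT T and B cells, which came from 5 UMIs with 0 to 342 CPM over the sets. KO T and B cells had 15.6 CPM from 13 UMIs. In T and B cells, the stromal markers summed to 1474 CPM in KO and 4009 CPM in WT. The ratio of Fgfr1 in P1 was -0.40 (-1.07 to 0.29) and over all stromal cells -0.15 (-0.63 to 0.35). With thinned cells they turned to 0.19 in P1 and 0.68 over all stromal cells.

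**Figure D4:**
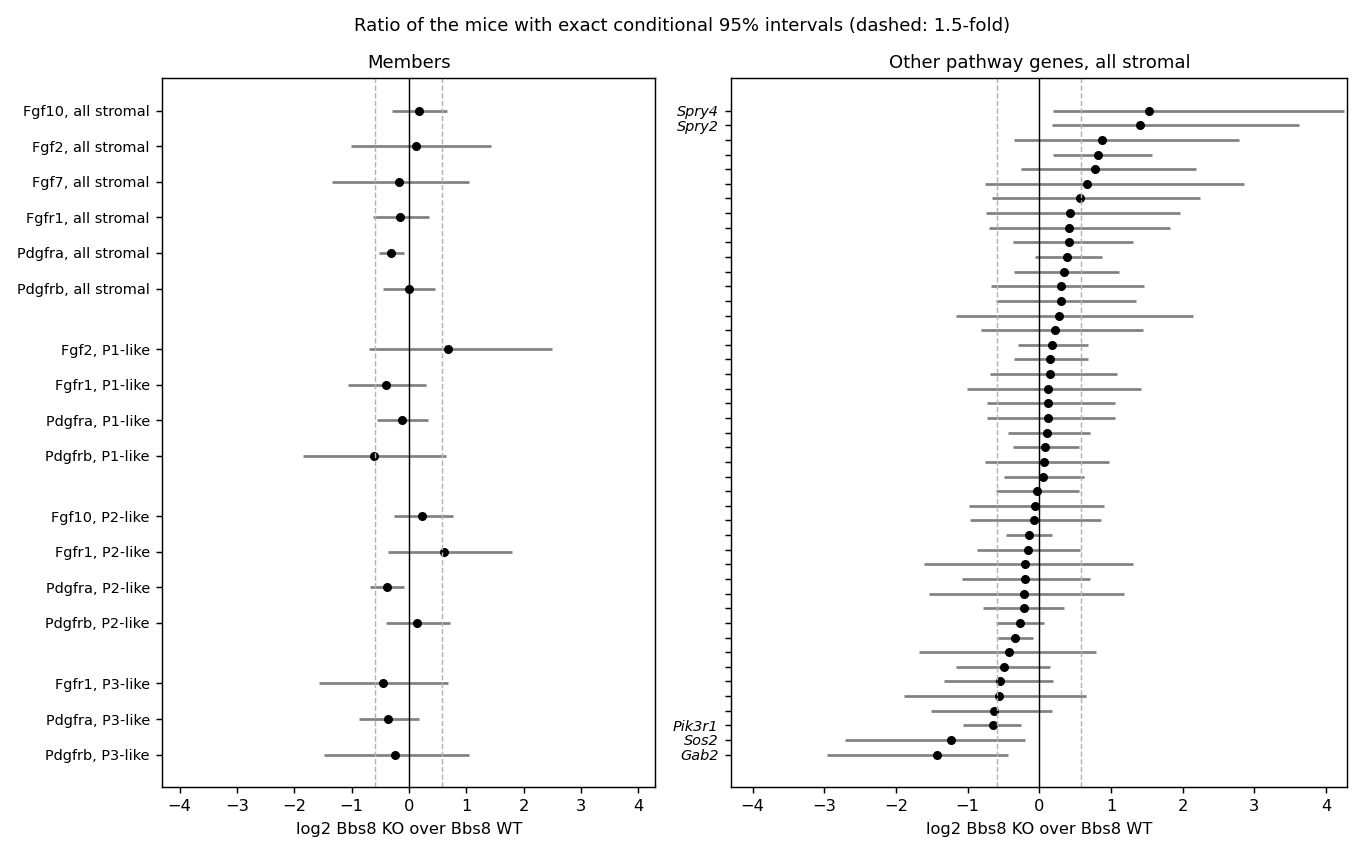
Log2 ratio of Bbs8 KO to Bbs8 WT after adding 5 CPM (horizontal axes), left for members with at least 20 UMIs in a stromal class and right for other pathway genes over all stromal cells, with names for the 5 genes given in the text. Points are ratios, grey lines the exact 95% interval of the plain ratio (counting error only, 1 mouse per genotype) and dashed lines 1.5-fold; among the members, only the lines of Pdgfra over all stromal cells (-0.31) and in P2-like cells (-0.38) do not cross 0.

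Of 89 other FGF and PDGF pathway genes listed, 68 were in the table. In named classes, Fgfr2, the receptor of Fgf10 and Fgf7, had 14 UMIs, of which 8 were in epithelial-like cells (86.5 CPM). Pdgfc was highest in macrophage-like cells (67.8 CPM, 23 of 40 UMIs), Pdgfd in P1 (61.8 CPM) and endothelial-like cells (56.3 CPM), and the receptor relative Pdgfrl in P3 (172 CPM, 26 UMIs). Cspg4, the pericyte proteoglycan NG2 that binds PDGF, had 303 CPM in pericyte-like cells, but all 19 UMIs there were from KO (379 CPM), and 0 UMIs in 37 WT pericyte-like cells allow up to 238 CPM. In WT, Cspg4 had 5 UMIs in named classes, of which 3 were in stromal cells. The WT mouse also gave at most 4 of the UMIs in the highest class of Fgfr2, Pdgfc, Pdgfd, Fgf18 and Flrt3, so the order of the classes rests mainly on KO for these genes. Of the FGF-side genes, Fgf18 (35.8 CPM) and Flrt2 (377 CPM) and Flrt3 (52.0 CPM), which encode FGFR-binding membrane proteins, were highest in P1, as were Fgfr1 and Fgf2. Fgfrl1, an FGF receptor without a kinase domain, had 13 of its 25 UMIs in named classes in P2 (27.7 CPM, with 12 of the 13 from KO), with 31.9 CPM in pericyte-like cells from 2 UMIs. Nrp1, a co-receptor of several growth factors, was highest in endothelial-like cells (1042 CPM). Fgf13, which encodes an FGF homolog that stays within the cell, had at most 4 UMIs in any of the 12 classes.

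**Figure D5:**
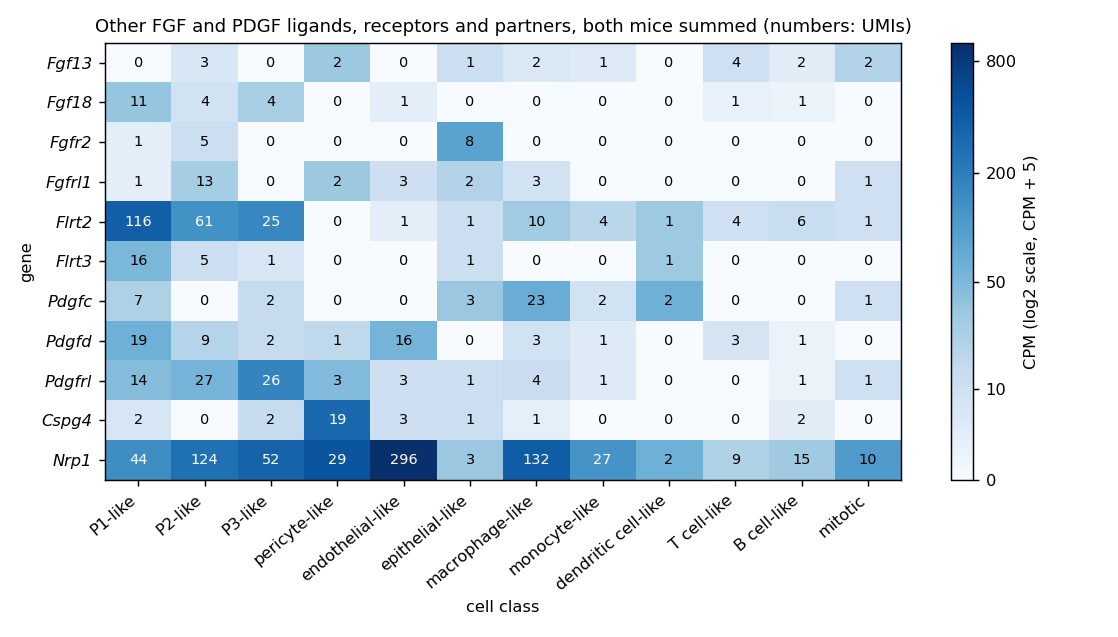
Heat map of 11 other FGF and PDGF ligands, receptors and partners (vertical axis) in 12 cell classes (horizontal axis), both mice together. Colour gives the level in CPM on a log2 scale after adding 5 CPM, and the number in each cell is its UMI count; Cspg4 is highest in pericyte-like cells (19 UMIs, all from KO), Fgfr2 in epithelial-like cells (8 UMIs) and Flrt2 in P1-like cells (116 UMIs).

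In stromal cells, 46 of these pathway genes had at least 20 UMIs. Of them, 7 were at least 1.5-fold higher and 4 at least 1.5-fold lower in KO, with a median log2 ratio of 0.11, and 0 had all KO sets above all WT sets and 1 had them all below. The fold counts are to be read against the 24.5% and 11.1% of all genes given above. The set counts are to be read against the 4.07% of all genes above and 1.24% below. With 46 genes, a count of 1 is near that share, and nothing is read from it. Among 10 feedback regulators and targets, 4 were higher and 0 lower (median 0.39), among 23 adaptors and kinases 2 were higher and 3 lower (median 0.07), and among 8 heparan sulphate proteoglycans 0 were higher and 1 lower (median -0.18). The highest ratios were those of the MAP kinase inhibitors Spry4 (1.53, 0.19 to 4.25, from 28 and 3 UMIs) and Spry2 (1.40, 0.17 to 3.63, from 32 and 4 UMIs). The lowest were those of the adaptor Gab2 (-1.43, -2.96 to -0.44), the exchange factor Sos2 (-1.24, -2.71 to -0.20) and Pik3r1, a regulatory subunit of PI3 kinase (-0.65, -1.06 to -0.26). Pik3r1 had 172 to 258 CPM in the KO sets and 275 to 439 CPM in the WT sets and was the gene whose sets did not overlap. As given above, the T and B cell markers were also higher in the KO stromal cells, and the erythroid markers lower. The endothelial markers summed to 269 CPM in KO (193 to 340 over the sets) and 68.2 CPM in WT stromal cells (16.7 to 97.6). The mitotic markers summed to 232 CPM in KO (129 to 312) and 26.5 CPM in WT (0 to 50.1). The part of such RNA in these ratios was not tested.

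For the 4 members with at least 100 UMIs, the genes with the most similar pattern over the 12 classes were taken from 5269 genes by the Pearson correlation of log2(CPM + 20), given as a description of 12 points that share libraries and depth. For Fgf10 these were Cdh11 (0.911), Hc (0.907), Adam12 (0.879), Zfp644 (0.875) and Gpm6b (0.871), which were all highest in P2. For Pdgfra they were Ptgfrn (0.982), Dpep1, Maged1, Lum and Dcn (0.9752), of which Lum and Dcn are stromal markers used to name the cells. For Pdgfrb they were Aoc3 (0.957), Acaa2, Pde3a, Pcdh19 and Steap4 (0.914), and for Fgfr1 they were Cpq (0.946), Rnase4, Ctsl, Grina and Timp2 (0.920). By Spearman's rho, the first 5 shared only Cpq for Fgfr1 and Maged1 for Pdgfra, and none for Fgf10 and Pdgfrb.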

How the data were processed

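Cells of the iWAT SVF were profiled with Seq-Well S3 from 1 Bbs8 KO and 1 Bbs8 WT mouse. The authors deposited a single table of UMI counts per gene and cell. Per their methods and notes, reads were demultiplexed with bcl2fastq 2.20 and aligned with STAR to mm10, samples were brought to a common depth, and cells were filtered; whether the deposited counts precede the depth step is not given in the sources used here. The 10 barcode sets could not be matched to single labelled samples. Cells were clustered with Seurat 5.3.0 in R 4.3.3 (2000 variable features without 24 FGF and PDGF genes, integration of the barcode sets, 30 dimensions, resolution 0.8). Clusters of at least 60 cells were named when their mean log2 fold over the markers was at least 1, a threshold set after the clusters were seen. The unnamed cells and smaller clusters entered no class.

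Counts were summed per class with Python 3.11.15 and scipy 1.17.1, and the script was tested on simulated data. Genes with at least 20 UMIs entered counts of genotype ratios. The named genes were the 9 members, the 3 pathway genes with the highest and the 3 with the lowest ratio, other FGF and PDGF ligands and receptors with at least 20 UMIs, and the 5 genes most like each member with at least 100 UMIs. A pathway gene that this rule names is not reported here. The members, lists and tests were chosen with earlier results of these data known. TMM factors were from edgeR 4.0.16 and size factors from DESeq2 1.42.0.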

Additional observations from a re-analysis of the deposited data

Results flagged for a closer look

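Among the 5 barcode sets of each genotype, 25 groups of members' levels were searched for a set that stands apart by Dixon's criterion, which chance meets in about 1 of 20 groups, and 2 did. Fgf10 in P2 cells of Bbs8 WT was 966.9 CPM in WT3_p3, with 127.4 to 358.9 CPM in the other 4 WT sets. This set is the smallest, with 196 cells in all. Pdgfra in P2 cells of Bbs8 KO was 698.8 CPM in KO5_p3, with 868.6 to 936.3 CPM in the other 4 KO sets. What the numbers in the set names stand for is not given in the sources used here.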

How the results depend on the processing

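Of 836 values of 35 results under the alternatives, 782 moved by less than the spread used (counting interval or 1.5 times a count), 54 by more, and 0 values whose counting interval left out 0 turned their direction. Genotype ratios whose interval included 0 did turn. Over all stromal cells, Pdgfrb had the other sign in 10 of 26 alternatives and Fgf2 in 7 of 26. No paired test was run, as the barcode sets could not be matched to the labelled samples, and no result comes from a test. The causes of the changes were not tested.

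Over all stromal cells, the members at least 1.5-fold higher in Bbs8 KO went from 0 to 1 with at least 200 genes per cell (Fgf2, 0.72 on the log2 scale) and with cells thinned to 200 UMIs (Fgfr1, 0.68). In P2 cells, those higher went from 1 to 0 with a pseudocount of 20 CPM, TMM or DESeq2 factors, resolutions 0.4 and 1.2, no integration, at least 200 genes per cell, calls by marker UMIs or sets weighted equally, and were 0 to 1 when 1 set was left out. Those lower in P2 went from 0 to 1 at resolution 0.4, with marker calls, thinned, or without the 6% of cells with the most UMIs.

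On the log2 scale, a pseudocount of 20 CPM lowered Fgf2 P1 over P2 to 2.03, Fgfr1 macrophage over T and B cell to 2.32, Pdgfra stromal over T and B cell to 4.64, Pdgfa pericyte over stromal to 3.48 and Pdgfb endothelial over stromal to 2.45. With sets weighted equally, Fgfr1 was 1.77, Pdgfra 4.15 and Pdgfb 3.54. With marker calls, Fgf10 P2 over P3 was 0.89, Pdgfrb pericyte over P2 1.57 and Pdgfa 3.77. Pdgfa was 3.58 thinned, and Pdgfb 3.799 without integration, 3.81 without the 6% and 3.79 to 4.28 when 1 set was left out. The share of genes higher in KO was 15.0% at a minimum of 50 UMIs and 38.1% at 1.

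Ratios of members in a subtype rest on few UMIs: Fgf10 over stromal cells was -0.32 at resolution 0.4, -0.29 with at least 200 genes and -0.30 with the unnamed stromal cluster (0.17 as reported), and also negative with marker calls (-0.14), with sets weighted equally (-0.07) and without KO6_p1 (-0.03). Fgfr1 in P2 ranged from -0.09 with at least 200 genes to 2.73 thinned. Alternatives that leave out cells by UMIs, count that cluster or drop shared barcodes were chosen after seeing the data. Medians of 251 and 278 UMIs per cell limit what can be seen of Fgf1, Pdgfa and Pdgfb in stromal cells.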
